A study of Mus musculus with 3 samples.

Results

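The transcripts of 5 intermediate filament genes were followed in embryo-like aggregates: the type II keratin genes Krt7 and Krt8, the type I keratin genes Krt18 and Krt19, and Vim, which encodes the type III protein vimentin. They were given as a list of names, drawn up with earlier results of these data known, and are 5 of the 32285 genes counted. All 3 libraries, 1 per type of aggregate, came from iGATA mouse embryonic stem cells of the E14tg2a strain, which carry a doxycycline-inducible GATA4 transgene. Expression of GATA4 turns the cells into primitive endoderm, the precursor of the visceral endoderm (VE). BELAs, bilayered aggregates of a VE layer around epiblast-like (Epi) cells, grew from cells of clone C6 given 0.5 µg/ml doxycycline for 8 h, 16 h in N2B27 medium without it and 3 days in N2B27 after seeding. VE cysts grew from the same clone with the same pulse, but doxycycline was kept on for the further 16 h, together with FGF4 (10 ng/ml) and heparin (1 µg/ml), and both factors also stayed in the medium during the 3 days after seeding. Epi cysts were grown without doxycycline from iGATA cells in drops of matrigel, at first in 2i with LIF and for the last 3 days in N2B27. BELAs and VE cysts were picked by hand for round shape, and VE cysts with a visible Epi-like core were set aside, which limits how many Epi cells that library could hold. VE cysts differed from BELAs in medium and in the time of doxycycline, and Epi cysts at least in matrix and in having no doxycycline. These factors, the type of aggregate and the library cannot be told apart.

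Cells were kept where 4000 or more genes were detected and no more than 10% of the UMIs (unique molecular identifiers, each of which marks 1 captured mRNA molecule) were mitochondrial. A cell was called VE where the UMIs of Gata6, Sox17, Dab2 and Cubn exceeded those of Pou5f1, Sox2, Nanog and Fgf4, and otherwise Epi. This gave 542 VE and 868 Epi cells of 1410 in BELAs, 577 VE and 48 Epi cells of 625 in VE cysts, and 1 VE and 656 Epi cells of 657 in Epi cysts. The single VE cell of the Epi cysts was not described. Of all cells, 5 had equal sums and were counted as Epi, and 38, 4 and 1 cells of BELAs, VE cysts and Epi cysts had mixed markers (a larger sum under 5 times the smaller, or no marker UMI). The 5 resulting groups held between 4306331 and 72108590 UMIs, with median depths of 56914 to 90251 UMIs per cell, and no barcode was shared between libraries. VE genes that the assignment did not use also separated the lineages: Amn, a subunit of the cubilin receptor, stood at 1226 CPM (its UMIs scaled to a total of 1000000 per group) in BELA VE cells and 627 CPM in VE cyst VE cells, and at no more than 12.5 CPM in the 3 Epi groups.

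Keratin filaments are built from pairs of 1 type I and 1 type II chain, and a chain that finds no partner is unstable. KRT8 with KRT18 is the pair of simple epithelia, including the trophectoderm and the endoderm layers of the early mouse embryo, and KRT7 and KRT19 can join it. Vimentin assembles on its own and is best known from mesenchymal cells, although the parietal endoderm expresses it as well as keratins. Because 3′ UMIs count molecules once whatever the transcript's length, genes were compared with each other by their UMIs. Capture and mapping of reads can still differ between genes, which the counting intervals leave out. Ratios between genes are thus ratios of counted UMIs. Transcripts and not proteins were counted, so these ratios do not give the balance of the chains.

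Krt8 (ENSMUSG00000049382, chr15:101996698-102004482 in GRCm38, minus strand) and Krt18 (ENSMUSG00000023043, chr15:102028180-102032027, plus strand) lie side by side in the GENCODE annotation, their bodies separated by 23697 bases and pointing away from each other. Krt18 is the type I gene that stands inside the type II cluster, with Krt7 (ENSMUSG00000023039, chr15:101411043-101430313, plus strand) on the same chromosome. Krt19 (ENSMUSG00000020911) is at chr11:100140810-100148665 on the minus strand, and Vim (ENSMUSG00000026728) at chr2:13573927-13582826 on the plus strand. The 250 bases before the RefSeq start (GRCm38.p6) of both partners of the Krt8 and Krt18 pair are shown, because these 2 neighbouring genes moved together from cell to cell. RefSeq windows were matched for 4 of the 5 genes. RefSeq and GENCODE place these starts differently. The Krt7 and Vim windows lie within the GENCODE bodies, and those of Krt8 and Krt18 overlap them in part. Capitals mark AGATAA or TGATAA, letters that GATA factors are known to bind, searched on both strands. The Krt8 window (chr15:102004343-102004592, minus strand) held 1 match, whose first base lies 239 bases upstream of the RefSeq start. No match was in the Krt18 window (chr15:102027966-102028215, plus strand), nor in those of Krt7 and Vim, and 16.6% of 32817 such windows held at least 1.
Krt8: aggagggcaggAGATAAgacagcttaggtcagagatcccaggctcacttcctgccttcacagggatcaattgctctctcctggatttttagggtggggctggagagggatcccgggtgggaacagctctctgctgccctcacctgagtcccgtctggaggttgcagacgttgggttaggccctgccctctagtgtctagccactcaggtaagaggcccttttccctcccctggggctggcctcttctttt
Krt18: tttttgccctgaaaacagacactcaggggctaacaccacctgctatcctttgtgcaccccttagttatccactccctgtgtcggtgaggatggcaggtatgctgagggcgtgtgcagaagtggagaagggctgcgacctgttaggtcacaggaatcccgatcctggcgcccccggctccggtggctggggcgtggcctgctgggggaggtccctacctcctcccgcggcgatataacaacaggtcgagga

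Krt8 and Krt18 were the most abundant of the 5 transcripts in both VE groups. Krt8, the type II partner, stood at 366 CPM (361 to 371) in BELA VE cells, 371 CPM (365 to 377) in VE cyst VE cells, 36.2 CPM (34.8 to 37.6) in BELA Epi cells, 17.4 CPM (16.2 to 18.8) in Epi cyst Epi cells and 29.0 CPM (24.2 to 34.6) in VE cyst Epi cells. These brackets are exact 95% Poisson intervals, which cover counting error only. Each type of aggregate was a single library and its cells are not replicates, so that no difference was tested and none between libraries has a replicate check. In the order of Krt8 levels, the intervals of the 2 VE groups overlapped and all other neighbours were apart.

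Krt18, the type I partner, stood at 405 CPM (400.1 to 411) in BELA VE cells, 297 CPM (292 to 303) in VE cyst VE cells, 147 CPM (144 to 150.0) in BELA Epi cells, 30.9 CPM (29.3 to 32.7) in Epi cyst Epi cells and 38.3 CPM (32.7 to 44.6) in VE cyst Epi cells. The 2 Epi groups from cysts overlapped, and the BELA Epi cells stood between them and both VE groups. Krt19, a type I chain that can replace KRT18, was at 142 CPM (138 to 145) in BELA VE cells, 90.3 CPM (87.2 to 93.4) in VE cyst VE cells, 15.8 CPM (14.9 to 16.8) in BELA Epi cells, 2.52 CPM (2.06 to 3.06) in Epi cyst Epi cells and 4.88 CPM (3.02 to 7.45) in VE cyst Epi cells. Its order was that of Krt18, with the 2 Epi groups from cysts again overlapping.

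Krt7, the second type II chain, was the rarest of the 4 keratins (level with Krt19 in VE cyst Epi cells), at 15.2 CPM (14.2 to 16.3) in BELA VE cells, 2.68 CPM (2.17 to 3.27) in VE cyst VE cells, 6.05 CPM (5.49 to 6.64) in BELA Epi cells, 2.20 CPM (1.77 to 2.71) in Epi cyst Epi cells and 4.88 CPM (3.02 to 7.45) in VE cyst Epi cells. Both BELA groups stood above the VE cells of VE cysts and the Epi cyst cells, which overlapped, and the interval of the 48 Epi cells of VE cysts overlapped with those of the BELA Epi cells and of the VE cells of VE cysts. Vim had another order. It stood at 21.5 CPM (20.3 to 22.8) in BELA VE cells, 77.7 CPM (74.8 to 80.6) in VE cyst VE cells, 31.5 CPM (30.2 to 32.8) in BELA Epi cells, 61.3 CPM (58.9 to 63.8) in Epi cyst Epi cells and 52.2 CPM (45.6 to 59.5) in VE cyst Epi cells. All 3 cyst groups lay above both BELA groups, and only the 2 Epi groups from cysts overlapped.

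**Figure D1:**
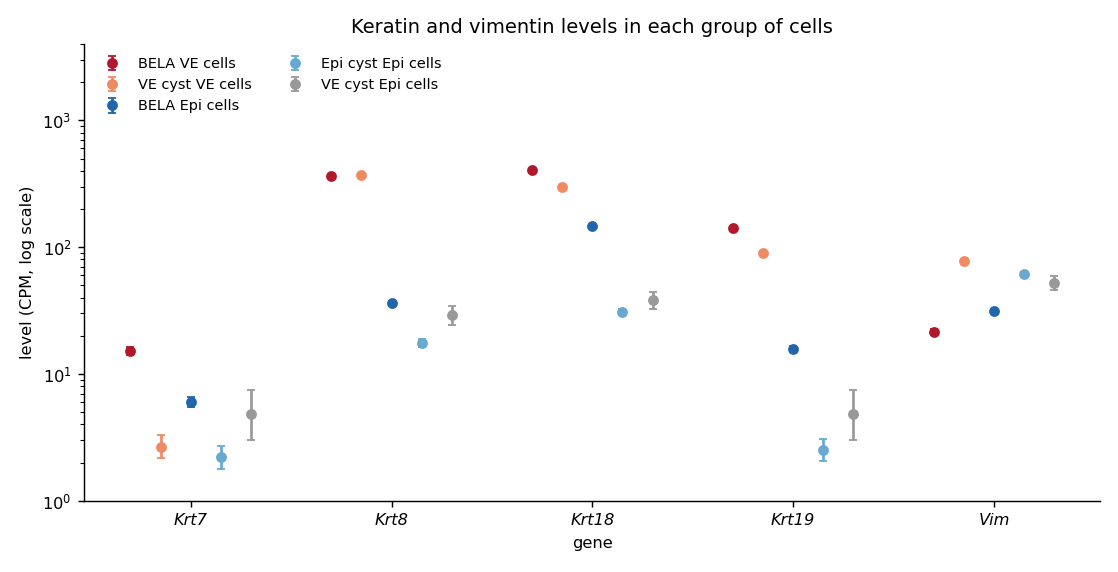
Level of each gene (CPM, log scale) in the 5 groups of cells. Points are pooled levels and bars are exact 95% Poisson intervals, which cover counting error only and are often smaller than the point. Krt8, Krt18 and Krt19 were highest in the VE groups (red and orange), while Vim was lowest in the BELA groups (red and dark blue), at 21.5 and 31.5 CPM.

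The first comparison asked how VE cells that share an aggregate with Epi cells differ from VE cells grown alone. A gene was counted as higher or lower where the ratio of levels was at least 2-fold after 5 CPM was added to each. Krt7 was higher in BELA VE cells, 5.68-fold (4.59 to 7.10) by the plain ratio, and Vim was 3.61-fold lower (3.37 to 3.87). Thus 1 of the 5 genes was counted as higher and 1 as lower, where 0.745% of the 21337 genes with a UMI in either group were counted as higher and 1.35% as lower. Krt18 (1.36-fold, 1.33 to 1.40) and Krt19 (1.57-fold, 1.50 to 1.63) stood above 1 but short of 2-fold. Krt8 had a plain ratio of 0.987 (0.966 to 1.01), and its log2 ratio of -0.02 lay between -0.31 and 0.12 under the alternatives, the highest when the levels were scaled so that the median gene had no difference. The median log2 ratio that was set to 0 was -0.14, and under this scaling Krt7 stood at 1.51 and Vim at -1.52. With 20 CPM added in place of 5, Krt7 had a log2 ratio of 0.63 and was no longer past 2-fold, while Vim still was (-1.23).

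The Krt7 call rested on part of the BELA VE cells. When the quintile with the highest sum of genes of the anterior visceral endoderm (AVE), the signalling centre that patterns the epiblast, was left out, a choice made after seeing the data, Krt7 stood at 5.72 CPM in the other 434 BELA VE cells, its log2 ratio to VE cyst VE cells was 0.48 and no longer past 2-fold, and that of Krt18 was 0.04. Without this quintile the log2 ratio of Krt8 was -0.31 and that of Vim -1.66. The 12 parietal endoderm genes (without Vim) summed to 10628 CPM in BELA VE cells and 24869 CPM in VE cyst VE cells, and 9 of them were counted as lower in BELA VE cells. Their part in the lower Vim level was not tested.

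In Epi cells, the comparison of BELAs with Epi cysts asked the same of the inner layer. Here Krt18 was 4.75-fold (4.48 to 5.04) and Krt19 6.28-fold (5.13 to 7.76) higher in BELA Epi cells, 2 of 5 genes, where 0.548% of 21904 genes were counted as higher and 0.589% as lower. With a log2 ratio of 2.08, Krt18 stood at percentile 99.9 of the 7823 genes of at least 10 CPM in either group. Krt7 (2.75-fold, 2.18 to 3.49) and Krt8 (2.08-fold, 1.91 to 2.26) exceeded 2-fold by the plain ratio only, with log2 ratios of 0.62 and 0.88 after 5 CPM was added. Vim was lower by a plain ratio of 1.95 (1.84 to 2.06), again short of the limit. With 20 CPM added the log2 ratio of Krt19 was 0.67, short of 2-fold, and that of Krt18 was 1.71.

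Because BELAs hold VE cells with abundant keratin, VE transcripts in the Epi cells of that library were measured for comparison. The 94 other genes that were VE-specific between cysts (at least 50 CPM in VE cells of VE cysts and of BELAs, and at least 20-fold above Epi cyst cells) stood in BELA Epi cells at a median of 2.98% of their BELA VE level, with quartiles of 1.07 and 6.22% and a maximum of 29.9%. Krt18 stood at 36.3% of its BELA VE level in BELA Epi cells and Krt7 at 39.8%, both above all 94 genes. The 94 genes were chosen to be low in Epi cyst cells, and these 2 keratins do not meet that choice. Krt18 stood at 297 CPM in VE cyst VE and 30.9 CPM in Epi cyst cells, and Krt7 at 2.68 CPM in VE cyst VE cells. Their place above the 94 genes was thus partly set by the choice. Krt8 stood at 9.89% and Krt19 at 11.2%, above the upper quartile and within the range. The UMI ratio of Krt8 to Krt18 was 0.903 (0.886 to 0.921) in BELA VE cells and 0.246 (0.236 to 0.257) in BELA Epi cells. The part of VE transcripts in the Krt7, Krt8, Krt18 and Krt19 levels of BELA Epi cells was not tested.

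One BELA Epi cell weighed on these sums. It held 164 of the 2612 Krt8, 255 of the 10609 Krt18, 56 of the 1141 Krt19 and 40 of the 436 Krt7 UMIs of the group, and 76 UMIs of Vim, at a depth of 67194 UMIs with 13 UMIs of Epi markers and none of VE markers. Without it and without the cell of most keratin UMIs in each other group, Krt18 and Krt19 were still counted as higher in BELA Epi cells, with log2 ratios of 2.06 and 1.42. Depth also moved with the levels. Krt18 stood at 175 CPM in the 434 shallower and 132 CPM in the 434 deeper BELA Epi cells, Krt19 at 22.4 and 12.3 CPM, and Vim at 45.0 and 24.2 CPM. In VE cells, Vim stood at 29.5 CPM in the shallower and 17.7 CPM in the deeper BELA cells, and at 96.5 and 68.0 CPM in those of VE cysts. The 2 sets of most similar depth were shallower BELA VE cells (median 68070 UMIs) and deeper VE cyst VE cells (73261 UMIs). They had 29.5 and 68.0 CPM of Vim, closer to each other than the levels over all cells. When each cell was thinned at random to 40000 UMIs and shallower cells left out, the log2 ratio of Vim between these VE groups was -1.72. With all UMIs it was -1.64. Over single cells, Pearson's r of Vim with total UMIs was -0.02 in BELA VE and 0.05 in VE cyst VE cells. The part of depth in the Vim difference was not tested.

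Within BELAs, Krt8, Krt18 and Krt19 were higher in VE than in Epi cells. Krt8 was 10.1-fold (9.71 to 10.5), Krt19 8.94-fold (8.40 to 9.53) and Krt18 2.76-fold (2.69 to 2.82) higher, and thus 3 of 5 genes were counted as higher and none as lower, where 6.24% of 22343 genes were counted as higher and 4.05% as lower. Krt7 was 2.51-fold higher by the plain ratio (2.24 to 2.83) and short of 2-fold after 5 CPM was added. Without the AVE-high quintile its log2 ratio was -0.04. Vim stood at 0.684 of its Epi level (0.637 to 0.734) in BELA VE cells.

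In VE cysts the same 3 keratins were higher in VE than in Epi cells, Krt19 18.5-fold (12.1 to 29.9), Krt8 12.8-fold (10.7 to 15.4) and Krt18 7.76-fold (6.65 to 9.10). These were 3 of 5 genes, none counted as lower, where 10.2% of 20408 genes were counted as higher and 5.99% as lower. The Epi side rested on 48 cells, and 1 of them held 64 of their 125 Krt8 UMIs, 32 UMIs of Epi markers and none of VE markers. Without it the Krt8 level of these cells was 14.4 CPM. Krt7 had a ratio of 0.549 (0.339 to 0.928) and Vim of 1.49 (1.30 to 1.71), so that both had the opposite direction to that within BELAs. In this comparison the median log2 ratio of the genes of at least 10 CPM was 0.15, and no direction of the 5 genes depended on setting it to 0.

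**Figure D2:**
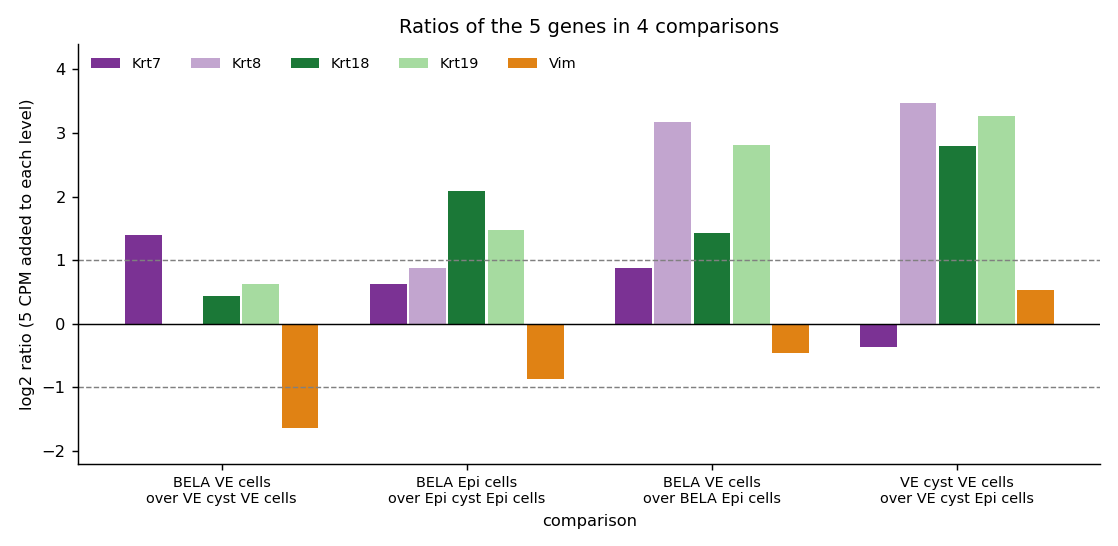
Log2 ratio of each gene, after 5 CPM was added to each level, in the 4 comparisons, with dashed lines at 2-fold. Krt8, Krt18 and Krt19 exceeded 2-fold between VE and Epi cells in both libraries, Krt18 and Krt19 between Epi cells of BELAs and Epi cysts, and Krt7 and Vim between VE cells of BELAs and VE cysts, in opposite directions.

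Summed over the 4 keratins, the level was 928 CPM in BELA VE cells, 761 CPM in VE cyst VE cells, 205 CPM in BELA Epi cells, 53.1 CPM in Epi cyst Epi cells and 77.1 CPM in VE cyst Epi cells. The balance of UMIs of the 2 types differed between groups. For each type I UMI there were 0.698 (0.685 to 0.710) type II UMIs in BELA VE cells, 0.965 (0.942 to 0.988) in VE cyst VE cells, 0.259 (0.249 to 0.270) in BELA Epi cells, 0.587 (0.537 to 0.641) in Epi cyst Epi cells and 0.785 (0.628 to 0.980) in VE cyst Epi cells. Type I UMIs thus outnumbered type II UMIs in BELA VE, BELA Epi and Epi cyst Epi cells, by most in the Epi cells of BELAs. In VE cyst VE cells the ratio was near 1. The variance of the type II UMIs between these cells was 4.76 times that of counting alone (5.07 in BELA VE cells), so no excess was read there. In the 48 VE cyst Epi cells the ratio depended on the setting, at 0.466 without 1 cell and 1.03 after thinning to 40000 UMIs per cell.

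Krt18 made up 43.7% of the keratin UMIs in BELA VE cells, 39.0% in VE cyst VE cells, 71.7% in BELA Epi cells, 58.3% in Epi cyst Epi cells and 49.7% in VE cyst Epi cells, so that the excess in BELA Epi cells was one of Krt18. Krt8 made up 39.5% in BELA VE cells and 48.7% in VE cyst VE cells. The UMI ratio of Krt8 to Krt18 was 0.903 in BELA VE cells and 1.25 (1.22 to 1.28) in VE cyst VE cells, where Krt8 and not Krt18 had more UMIs. The other possible pair, Krt7 with Krt19, was far from balance in VE cells, with 0.107 (0.0999 to 0.115) Krt7 UMIs for each Krt19 UMI in BELA VE cells and 0.0297 (0.0239 to 0.0364) in VE cyst VE cells. In BELA Epi cells this ratio was 0.382 (0.341 to 0.427).

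**Figure D3:**
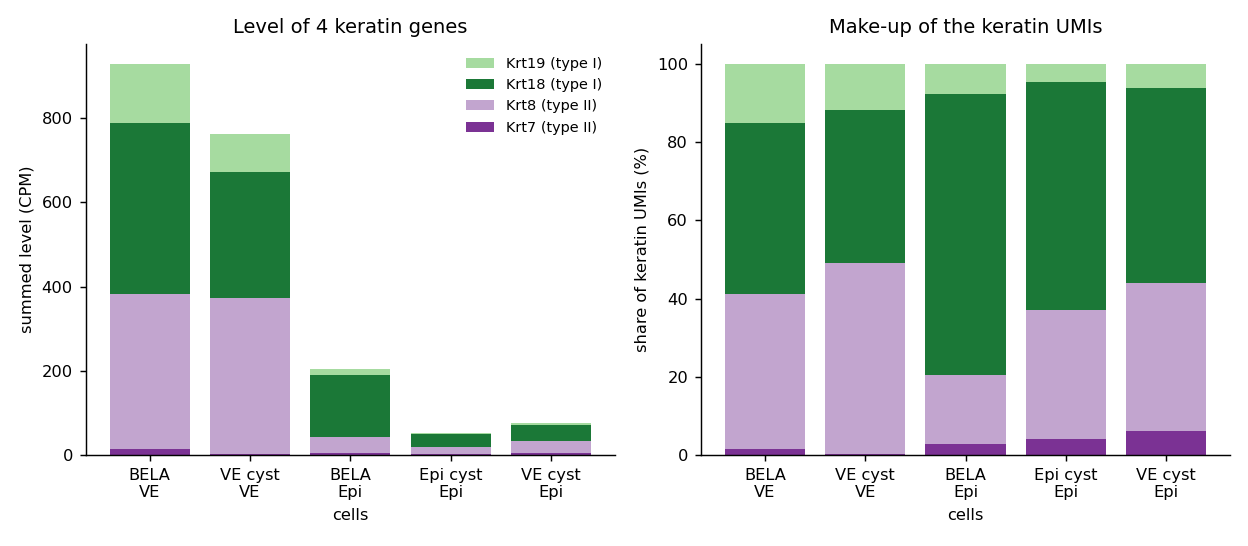
Left, summed level of the 4 keratin genes (CPM, from 0) in each group of cells. Right, the share of each gene in the keratin UMIs of the group (%), type II in violet and type I in green. The VE groups held 928 and 761 CPM of keratin and the Epi groups 205 CPM or less, and Krt18 took the largest share, 71.7%, in BELA Epi cells.

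Most VE cells carried transcripts of both types. UMIs of at least 1 type II and 1 type I member were found in 98.5% of BELA VE cells, 97.6% of VE cyst VE cells, 83.3% of BELA Epi cells, 46.8% of Epi cyst Epi cells and 70.8% of VE cyst Epi cells. No keratin UMI at all was found in 0 of 542 BELA VE cells, which allows a share of up to 0.678% (exact Clopper-Pearson), and in 0 of 577 VE cyst VE cells (up to 0.637%). Of the Epi cells, 6 of 868 in BELAs (0.691%, 0.254 to 1.50%), 84 of 656 in Epi cysts (12.8%, 10.3 to 15.6%) and 2 of 48 in VE cysts had none. Where a cell had UMIs of 1 type only, this was type I in 134 and type II in 5 BELA Epi cells, and type I in 189 and type II in 76 Epi cyst cells.

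These shares depend on depth, so cells were also thinned to 40000 UMIs each, which left out 28 BELA VE, 104 VE cyst VE, 67 BELA Epi, 64 Epi cyst Epi and 4 VE cyst Epi cells. After thinning, Krt18 was found in 96.1% of BELA VE cells, 95.3% of VE cyst VE cells, 95.6% of BELA Epi cells, 62.0% of Epi cyst Epi cells and 63.6% of VE cyst Epi cells (98.7, 96.5, 98.4, 72.6 and 85.4% before thinning). Nearly every BELA Epi cell thus held Krt18 UMIs, although the level was lower than in VE cells. For scale, Amn was found in 99.8% of thinned BELA VE cells at 1226 CPM and in 33.6% of thinned BELA Epi cells, and the transport protein gene Ttr in 87.2% of thinned BELA VE cells at 718 CPM and in 10.4% of thinned BELA Epi cells (91.7 and 20.0% before thinning). Both are VE genes, and the share of Krt18 in BELA Epi cells lay far above theirs. They are 2 of a list of 8 VE genes, and not its highest in BELA Epi cells. Apoe stood there at 733 CPM (251 CPM in Epi cyst cells) and Lrp2 at 32.0 CPM, against 12.5 CPM for Amn, and the rest of the list stood below Amn.

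Krt8 was found in 98.2, 98.7, 62.9, 42.1 and 40.9% of thinned BELA VE, VE cyst VE, BELA Epi, Epi cyst Epi and VE cyst Epi cells (99.1, 99.1, 78.8, 54.7 and 60.4% before thinning). Krt19 was found in 64.6% of thinned BELA VE cells and 53.7% of thinned VE cyst VE cells, against 26.0% of BELA Epi, 9.29% of Epi cyst Epi and 22.7% of VE cyst Epi cells. A cell with no Krt19 UMI may still hold the transcript. Before thinning the Krt19 shares were 71.2, 57.9, 37.7, 12.7 and 27.1%. Krt7 was found in 22.4% of thinned BELA VE, 5.07% of VE cyst VE, 18.2% of BELA Epi, 7.26% of Epi cyst Epi and 18.2% of VE cyst Epi cells (30.8, 8.32, 30.9, 11.6 and 31.3% before thinning). In BELA Epi cells the share of Krt8 lay above that of Amn (33.6%). It also lay above that of Dab2 (36.5%), but Dab2 is among the genes that assigned the lineage. Its share in Epi cells was thus limited by the assignment and is no measure of VE transcripts there. The shares of Krt19 and Krt7 lay between those of Ttr (10.4%) and Amn. None of these shares alone was read as expression.

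Vim was found in 31.9% (27.9 to 36.1%) of thinned BELA VE cells, 61.1% (56.5 to 65.5%) of VE cyst VE cells, 50.7% (47.2 to 54.2%) of BELA Epi cells, 80.6% (77.2 to 83.7%) of Epi cyst Epi cells and 77.3% of VE cyst Epi cells (45.8, 65.0, 68.3, 88.0 and 87.5% before thinning). Keratin and Vim UMIs occurred together in 31.7% of thinned BELA VE cells and 60.5% of thinned VE cyst VE cells, and most other VE cells had keratin UMIs alone (68.1% in BELAs and 38.9% in VE cysts). Of thinned BELA Epi cells 49.9% had both, 47.6% keratin alone and 0.749% Vim alone, whereas of thinned Epi cyst cells 64.0% had both, 14.4% keratin alone and 16.6% Vim alone. Keratin UMIs outnumbered those of Vim 43.1-fold in BELA VE cells, 9.80-fold in VE cyst VE cells and 6.52-fold in BELA Epi cells, and in Epi cysts there were 0.866 keratin UMIs for each of Vim.

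Single cells differed widely around these levels. Krt18 had quartiles of 119.6, 268 and 567 CPM over BELA VE cells and of 91.5, 206 and 404 CPM over VE cyst VE cells, and Krt8 of 146, 286 and 515 CPM and of 188, 314 and 470.2 CPM. Krt19 was more unequal, with a median of 46.1 CPM and an upper quartile of 211 CPM in BELA VE cells, and of 18.8 and 136 CPM in VE cyst VE cells. The tenth of BELA VE cells with the most UMIs of a gene (55 cells) held 33.3% of the Krt8, 37.3% of the Krt18, 48.5% of the Krt19, 66.7% of the Vim and 74.1% of the Krt7 UMIs. Low counts alone spread rare transcripts over few cells, so these shares are not comparable between Krt7 and the abundant pair.

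Krt8 and Krt18 moved together from cell to cell. Pearson's r of log2(CPM + 10) between them was 0.78 over 542 BELA VE cells, 0.60 over 577 VE cyst VE cells, 0.35 over 868 BELA Epi cells and 0.18 over 656 Epi cyst cells, the last with few UMIs per cell. In BELA VE cells, Krt7 had r of 0.47 with Krt18 and 0.43 with Krt8, and Krt19 of 0.45 with Krt8 and 0.40 with Krt18. Vim had r between -0.09 and 0.03 with the 4 keratins in BELA VE cells and between -0.0021 and 0.16 in VE cyst VE cells. The cells of a group share 1 library and differ in depth, and r with total UMIs was between -0.10 and 0.05 for the 5 genes over BELA VE cells. Over the cells with at least 20 keratin UMIs, the type II share had a median of 43.0% in BELA VE cells (457 cells, quartiles 35.1 and 50.9%), 49.4% in VE cyst VE cells (427 cells, 39.4 and 63.9%) and 17.6% in BELA Epi cells (249 cells, 10.0 and 26.9%).

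**Figure D4:**
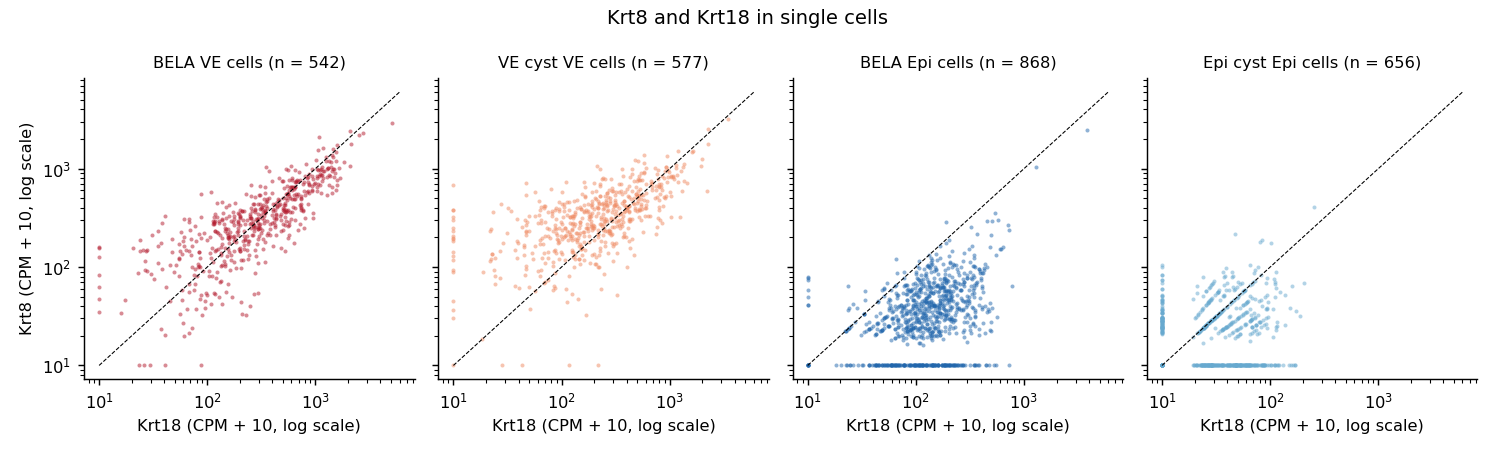
Krt8 against Krt18 in single cells of 4 groups, each axis in CPM per cell with 10 added (log scale). Every point is a cell and the dashed line marks equal levels. VE cells lie along the line (r of 0.78 in BELAs and 0.60 in VE cysts), BELA Epi cells mostly below it, and cells without a UMI on the lower and left edges.

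The genes most like each keratin over BELA VE cells were then listed, among 5491 genes of at least 20 CPM. For Krt8 and Krt18 the first was the partner. Next for Krt18 came Prss12, a serine protease gene (r = 0.60), the selenium carrier gene Selenop (0.58), the retinol binding protein gene Rbp4 (0.57) and Ttr (0.55), and for Krt8 came Ttr, Selenop, Rbp4 and Prss12 (0.53, 0.53, 0.52 and 0.51). In VE cyst VE cells Krt18 and Krt8 were again each other's first gene, and Rbp4 had r of 0.53 and 0.44 with them. For Krt19 the list was Krt8, Plac8, Litaf, Gpx3 and Tuba1a (0.45 to 0.42).

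Krt7 was most like Gpc4, a glypican (0.59), Sfrp1, a secreted Wnt antagonist (0.57), Grb10, an adaptor of growth factor receptors (0.54), Otx2, a transcription factor of the AVE (0.53) and Irs4, an insulin receptor substrate (0.53). In VE cyst VE cells, where Krt7 was at 2.68 CPM and these genes stood at 9.78 CPM or less, the values were 0.18, 0.02, 0.28, -0.01 and -0.02. For Vim, ranked over VE cyst VE cells among 5996 other genes, the first were Cd24a, Slc26a10, Trap1a, Creb3l1 and Eef1a1, at 0.27 to 0.23. In sparse counts such values are too weak to name a pattern.

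Next, BELA VE cells were ordered by the summed level of 7 AVE genes (Cer1, Lefty1, Hhex, Lhx1, Otx2, Eomes and Gsc) and cut into quintiles of 108 or 109 cells. From the lowest to the highest quintile, Krt7 stood at 4.31, 5.22, 4.84, 8.05 and 53.0 CPM. The highest quintile thus held 580 of the 829 Krt7 UMIs, and Krt7 was found in 14.7% of the cells of the lowest and 66.7% of those of the highest. Krt18 stood at 372, 281, 251, 330.3 and 802 CPM and Krt8 at 352, 321, 249, 286 and 635 CPM, so that both partners were lowest in the middle and highest in the AVE-high quintile.

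Krt19 was highest at both ends, at 230, 130, 84.2, 82.4 and 206 CPM. Vim stood at 35.2, 14.7, 20.7, 17.2 and 22.7 CPM and was highest in the lowest quintile. The type II to type I ratio was 0.593, 0.794, 0.758, 0.712 and 0.682. Quintiles are ranges of a score and not cell types: the highest began at 160 CPM of AVE genes, and 21 cells lay within 10% of this limit. Median depth per quintile was between 78945 and 101582 UMIs. Ordered by Cer1, Hhex, Lhx1 and Gsc alone, a choice made after seeing the data, the highest quintile had 47.7 CPM of Krt7, 745 CPM of Krt18 and 586 CPM of Krt8. These genes are all in the first order too, and Lhx1 alone stood at 207 CPM in this quintile. The second order is thus not independent of the first. Ordered by all 7 genes without cells of mixed markers, the highest quintile had 54.2, 817 and 649.8 CPM of Krt7, Krt18 and Krt8.

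Ordered by the 12 parietal endoderm genes, among them Sparc, the collagen IV genes Col4a1 and Col4a2 and the laminin chains, BELA VE cells had Krt18 at 754, 426, 303, 288 and 238 CPM from the lowest to the highest quintile. Krt8 stood at 588, 377, 258, 293 and 321 CPM and Krt7 at 40.0, 22.4, 5.65, 3.72 and 2.24 CPM, all highest where these genes were lowest. The AVE gene Lhx1 fell along the same quintiles, at 161, 55.6, 20.3, 10.2 and 5.08 CPM. The parietal order of BELA VE cells is thus not independent of the AVE order. Here 78 BELA VE cells lay within 10% of the limit of the highest quintile, and 122 VE cyst VE cells did so in the same order of that library. Krt19 was again highest at both ends (202, 91.2, 102, 146 and 188 CPM). Vim stood at 22.4, 13.0, 15.4, 20.1 and 43.3 CPM, and the parietal-high quintile was above the other 4. This quintile was also the shallowest, with a median of 72678 UMIs per cell against 86132 to 102984 in the others, and the part of depth in its Vim level was not tested.

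In VE cyst VE cells the same order gave 488, 277, 275, 201 and 204 CPM for Krt18 and 487, 366, 365, 325 and 285 CPM for Krt8, both highest in the lowest quintile. Krt7 stood at 8.33 CPM in the lowest quintile and between 0.455 and 1.46 CPM in the other 4. Krt19 stood at 139, 61.8, 86.0, 77.6 and 79.4 CPM. Vim stood at 56.9, 76.5, 89.5, 63.7 and 108 CPM, without an even order but highest in the parietal-high quintile. The ratio of type II to type I was 0.791 in the lowest quintile and 1.01 to 1.17 in the others.

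**Figure D5:**
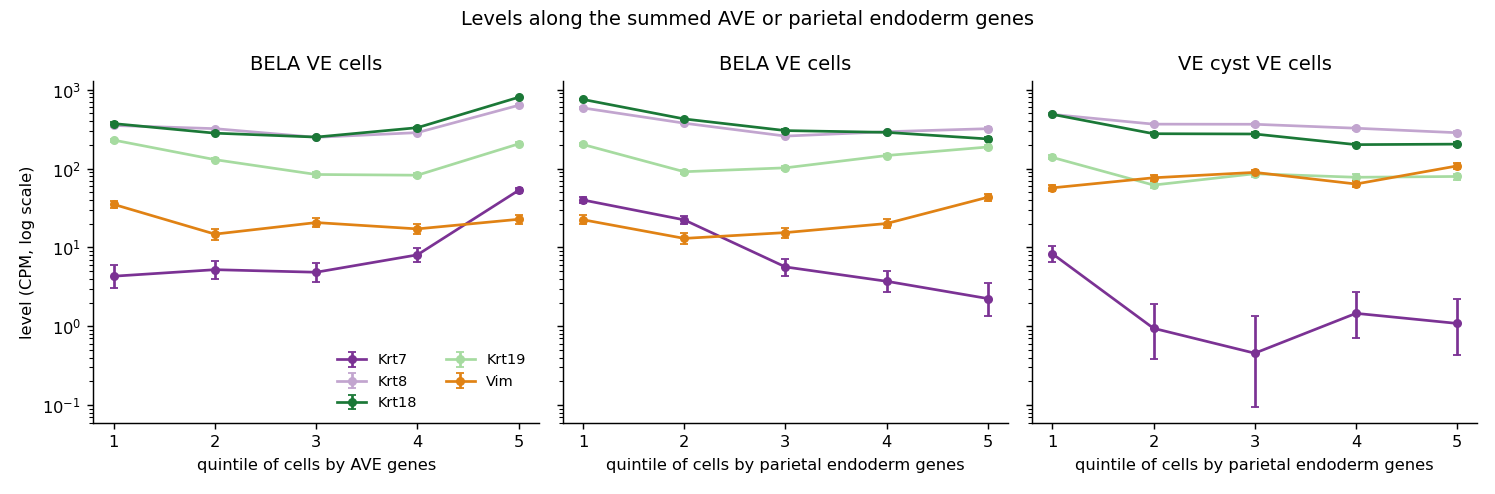
Level of each gene (CPM, log scale) in quintiles of VE cells ordered from low to high by AVE genes (left) or parietal endoderm genes (middle and right). Bars are exact 95% Poisson intervals and cover counting error only. Krt7 reached 53.0 CPM in the AVE-high quintile of BELA VE cells, and Krt8 and Krt18 were lower in the parietal-high than in the parietal-low quintile in both libraries.

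Epi cyst cells with a UMI of T (Brachyury), the transcription factor of the primitive streak, were also set against those without. The 210 such cells had 56.4 CPM of Vim, 28.2 CPM of Krt18 and 15.3 CPM of Krt8, and the 446 without had 63.8, 32.3 and 18.5 CPM. Krt7 stood at 1.54 CPM (0.956 to 2.36) with and 2.53 CPM (1.97 to 3.20) without a T UMI, and Krt19 at 2.06 CPM (1.37 to 2.98) with and 2.75 CPM (2.16 to 3.45) without, so that the intervals of both overlapped. The 54 cells with at least 5 T UMIs had 63.6 CPM of Vim.

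The other keratin genes were rare, apart from Krt10. The 23 other type II features summed to 0.367 CPM in BELA VE cells, 0.648 CPM in VE cyst VE cells and 4.30 CPM in BELA Epi cells, and none reached 10 CPM in a group. Of the 26 other type I features, Krt10, a suprabasal keratin of the epidermis, was the only one that did, with 4.29 CPM in BELA VE, 7.66 CPM in VE cyst VE, 7.45 CPM in BELA Epi, 15.3 CPM in Epi cyst Epi and 15.1 CPM in VE cyst Epi cells. In Epi cyst cells it thus stood near Krt8 (17.4 CPM) and above Krt7 and Krt19, and with all keratin genes summed the type II to type I ratio there was 0.439 in place of 0.587. None of these other type II and type I features was counted as higher or lower in any of the 4 comparisons.

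Of 14 other intermediate filament genes, 1 was higher and 1 lower in BELA VE cells over VE cyst VE cells. Lmna, which encodes the A-type nuclear lamins, stood at 157 CPM in BELA VE cells and 66.6 CPM in VE cyst VE cells (2.36-fold, 2.26 to 2.47), and the neurofilament light gene Nefl at 24.4 and 56.6 CPM (2.32-fold lower, 2.17 to 2.49). Nefl and the neurofilament medium gene Nefm were the 2 lower genes in BELA Epi cells over Epi cyst cells, at 12.1 and 4.16 CPM in BELA Epi cells and 32.5 and 16.3 CPM in Epi cyst cells, and none was higher. The median log2 ratio of the 14 genes was 0.25 between VE cells and -0.03 between Epi cells of BELAs and cysts, where that of all genes was -0.02 and 0.0040.

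Between lineages, Lmna was the only one of the 14 that was higher in VE cells, 18.8-fold (17.3 to 20.4) in BELAs and 9.57-fold (6.68 to 14.2) in VE cysts. Nes, Ina, Nefh and Synm, which are known from neural progenitors, neurons and muscle, were lower in VE cells in both libraries, and Des and Lmnb2 in VE cysts too. Ina, the gene of alpha-internexin, stood at 3.41 CPM in BELA VE cells and 64.5 CPM in BELA Epi cells, and Nes, the gene of nestin, at 6.36 and 44.6 CPM. The B-type lamin gene Lmnb1 stood at 147 CPM in BELA VE cells, 152 CPM in VE cyst VE cells, 238 CPM in BELA Epi cells and 256 CPM in Epi cyst cells. Prph, the gene of peripherin, was at 7.87 CPM in BELA VE, 1.80 CPM in VE cyst VE, 10.5 CPM in BELA Epi, 12.1 CPM in Epi cyst Epi and 8.13 CPM in VE cyst Epi cells.

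The 12 genes that link intermediate filaments to desmosomes and other anchors gave no gene past 2-fold in either comparison of BELAs with cysts. In VE over Epi cells, 4 were higher in both libraries: Dsp, the desmoplakin that ties keratin filaments to desmosomes (47.8 CPM in BELA VE and 3.34 CPM in BELA Epi cells), the desmosomal cadherin genes Dsg2 (80.9 and 13.9 CPM) and Dsc2 (11.6 and 2.15 CPM), and Jup, the gene of plakoglobin (78.0 and 24.5 CPM). Dst, the gene of dystonin, was lower in BELA VE cells (40.0 CPM) than in BELA Epi cells (111 CPM). In VE cysts, Dsp stood at 66.8 CPM in VE cells and 6.73 CPM in Epi cells.

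Markers of other cell types that express keratins or vimentin were measured as well. Of 8 trophoblast genes without keratins, Plac1 was the only one above 10 CPM in a group, at 29.5 CPM in BELA VE and 102 CPM in VE cyst VE cells, while Cdx2 and Gata3 did not pass 5.04 CPM, Elf5 did not pass 0.110 CPM and Prl3d1 was at 0 in all 5 groups. The list summed to 35.5 CPM in BELA VE cells and 108 CPM in VE cyst VE cells. Of 9 fibroblast genes, Col1a1, Col1a2 and Col3a1 did not pass 1.17 CPM in any group. Twist1 reached 14.3 CPM in BELA VE cells and Thy1 19.3 CPM in BELA Epi cells. The 7 genes of the primitive streak and mesoderm summed to 56.1 CPM in BELA VE, 6.76 CPM in VE cyst VE, 9.53 CPM in BELA Epi, 80.2 CPM in Epi cyst Epi and 51.1 CPM in VE cyst Epi cells, with Fgf8 at 41.3 CPM and T at 19.6 CPM in Epi cyst cells. One of them, Eomes (32.5 CPM in BELA VE cells), is also on the AVE list. The 7 neural genes summed to 5.65 CPM in BELA VE, 1.63 CPM in VE cyst VE, 42.7 CPM in BELA Epi, 50.4 CPM in Epi cyst Epi and 28.8 CPM in VE cyst Epi cells, with Tubb3 and Elavl3 the only ones above 10 CPM in a group. The part of such cells in the Vim levels was not tested.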

How the data were processed

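Single-cell libraries of BELAs, VE cysts and Epi cysts (10x Genomics 3′ v3.1 chemistry) were demultiplexed, aligned to mm10 (GENCODE vM23) and counted by the authors with Cell Ranger 4.0.0. The deposited files hold raw UMI counts of 32285 genes for 2220 (BELAs), 881 (VE cysts) and 1076 (Epi cysts) barcodes. The cell filter is that of the study. UMIs were summed per library and lineage and divided by the group's total (CPM). Levels have exact Poisson intervals, shares exact Clopper-Pearson intervals and ratios exact conditional binomial intervals, all at 95%, which cover counting error only. Ratios were computed for all genes, with 5 CPM added, and checked on simulated Poisson counts, which leave out the spread between cells. In thinning, UMIs were drawn at random and cells under 40000 UMIs left out.

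The named genes were the 5 members, every gene of the other keratin, other intermediate filament and linker lists past 2-fold between BELAs and cysts or, for filament genes, of at least 10 CPM, and the 5 genes most correlated with each member. Further genes were named as examples. The members and all lists were chosen with earlier results of these data known. Scrublet (Scanpy 1.11.5) called 33 (BELAs), 1 (VE cysts) and 11 (Epi cysts) barcodes as doublets, which stayed in except in an alternative, and the call in VE cysts, at so low a share, says little. Gene positions are from GENCODE (GRCm38) and promoter windows from RefSeq (GRCm38.p6). GENCODE lists a processed pseudogene of Krt8 on chromosome 7 that is not among the counted genes, and how reads that match both were counted is not given in the sources used here. Python 3.11.15, NumPy 2.4.6, SciPy 1.17.1 and pandas 2.3.3 were used.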

Additional observations from a re-analysis of the deposited data

Results flagged for a closer look

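Krt7 and Vim lay on opposite sides of 1 in VE over Epi cells of the 2 libraries that hold both lineages, beyond the counting intervals of both ratios. For Krt7 the plain ratio of VE over Epi cells was 2.51 (2.24 to 2.83) in BELAs, while in VE cysts it was 0.549 (0.339 to 0.928). For Vim it was 0.684 (0.637 to 0.734) in BELAs, while in VE cysts it was 1.49 (1.30 to 1.71). This difference between libraries was not tested, as each is a single library, and the Epi cells of VE cysts were 48 cells with 21 UMIs of Krt7. Without the AVE-high quintile of BELA VE cells, left out of BELAs only and after seeing the data, the log2 ratio of Krt7 in BELAs was -0.04 (-0.36 in VE cysts). The other 434 BELA VE cells had 5.72 CPM of Krt7 (5.03 to 6.47) and BELA Epi cells 6.05 CPM (5.49 to 6.64), so that these intervals overlapped. The higher Krt7 level of BELA VE over BELA Epi cells thus rested on that quintile, and no direction was read without it. None of these 4 ratios reached 2-fold after 5 CPM was added.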

How the results depend on the processing

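Of the 5 genes, 2 were past 2-fold in BELA VE over VE cyst VE cells and 2 in BELA Epi over Epi cyst Epi cells with 5 CPM added. With 1 CPM added the second count was 4 (Krt7 and Krt8 entered), and with 20 CPM added both counts were 1, since the levels of Krt7 and Krt19 are near the constant. Without the AVE-high quintile of BELA VE cells, an alternative chosen after seeing the data, the first count was 1. The count between VE and Epi cells was 3 in both libraries under all alternatives, except for 4 in BELAs with 1 CPM added, where Krt7 entered. The type II to type I ratio, 0.259 in BELA Epi cells, was 0.249 as a mean over cells and 0.249 without the cell of most keratin UMIs, also chosen after seeing the data. In VE cyst Epi cells, at 0.785, it was 1.03 after thinning, 0.596 with all keratin genes summed and 0.466 without that cell, and in Epi cyst cells, at 0.587, it was 0.439 with all keratin genes summed. No direction of a gene counted as past 2-fold turned round under an alternative: scaling to the median gene, a filter at 3000 genes and 20% mitochondrial UMIs, mixed cells or doublets left out, or only genes of 10 CPM or more. No paired analysis was possible because each group is 1 library, and for the same reason no replicate could be left out. The 48 Epi cells of VE cysts limit every value that rests on them.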
